A study of Homo sapiens with 9 samples.

Results

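A set of 10 heat shock response genes was followed across the 3 conditions of the series. They are *HSF1*, the main transcription factor of the response, the HSP70 genes *HSPA1A*, *HSPA1B* and *HSPA8*, the HSP110 gene *HSPH1*, the HSP40 gene *DNAJB1*, the small heat shock protein gene *HSPB1*, the HSP90 genes *HSP90AA1* and *HSP90AB1*, and the cochaperone gene *BAG3*. The 10 genes were chosen by name, as HSF1 and cytosolic chaperones and cochaperones, out of 60664 genes listed in each library, and all 10 were among the 18264 genes abundant enough to be tested. MDA-MB-231 is an established line of human triple-negative breast cancer cells. Poly(A) RNA of the line was sequenced in 3 groups of 3 libraries, all taken on day 6 of culture in medium of a set viscosity, raised where needed with methylcellulose. One group carried a scramble hairpin (SC) at 0.77 cP, close to water, another carried the same scramble hairpin at 8 cP, and the third carried a hairpin against *TRPV4* (shTRPV4), the gene of a mechanically and thermally gated calcium channel, at 8 cP. Both hairpins were introduced with lentiviral vectors into the same line, and the study's methods name a single hairpin sequence for *TRPV4* in its main experiments. The comparison of SC cells at 8 cP with SC cells at 0.77 cP asks what the medium of raised viscosity did. It is called the difference with viscosity below, though viscosity and the added methylcellulose cannot be told apart in it. The comparison of shTRPV4 cells with SC cells at 8 cP asks what loss of *TRPV4* did under the same viscosity. The 3 groups include no shTRPV4 cells at 0.77 cP, so the comparison of shTRPV4 cells at 8 cP with SC cells at 0.77 cP holds both differences at once. The labels do not say whether the 3 libraries of a group came from separate cultures, and p-values measure the spread between these libraries.

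Heat shock proteins are chaperones that bind unfolded proteins and keep them from clumping. HSP70 works in cycles of binding and release, to which HSP40 proteins deliver the client and which HSP110 and BAG proteins reset by exchanging the nucleotide. HSP90 takes over part-folded clients, many of them kinases and hormone receptors, and small heat shock proteins hold unfolded proteins without using ATP. Some members, such as HSPA8 and HSP90AB1, are made all the time at high levels. Others, such as HSPA1A and HSPA1B, are low until proteins unfold, when HSF1 is freed from chaperones, forms trimers and binds heat shock elements, inverted repeats of the letters GAA, in their promoters. Many tumour cells keep part of this programme active without heat.

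Total counts ran from 64571681 to 103518036 per library. *TRPV4* itself was low, at 0.424, 0.436 and 0.525 CPM (counts per 1000000 counts of the scaled library) in SC cells at 0.77 cP, 0.647, 0.466 and 0.264 CPM in SC cells at 8 cP and 0.0764, 0.0128 and 0.144 CPM in shTRPV4 cells. It was lower in shTRPV4 cells than in SC cells at 8 cP (log2 fold change -2.51 ± 0.49 (SE), adjusted p = 0.00219), in the direction of the labels. Of the markers of the line, *VIM*, *CD44* and *EGFR* were at 194.9 CPM or more in every library and *ESR1*, *PGR* and *CDH1* at 0.133 CPM or less. *ERBB2*, listed among the genes that should be low, was at 89.6 to 96.8 CPM, and *SPARC*, listed as a marker of such cells, was only at 0.60 to 1.63 CPM. The share of counts from mitochondrial genes was 2.04 to 2.58% in SC cells at 0.77 cP, 2.23 to 2.44% in SC cells at 8 cP and 3.28 to 3.40% in shTRPV4 cells, and its part in the results on shTRPV4 cells was not tested.

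Heat shock elements were searched in the promoters of the members other than *HSF1*, since they are the sites that HSF1 is known to bind. The sequences are those of RefSeq (GRCh38.p14), 250 bases before to 50 after a start site, and *HSF1* had no entry. The motif was 3 blocks, GAA, then TTC, then GAA, with 2 letters of any kind (NN) after the first and after the second, and it was searched on both strands, so that a match on the other strand reads TTC, GAA, TTC with the same gaps. An exact match stood in 0.49% of the 35114 promoters used, from 27303 genes, and a match with at most 1 of the 9 fixed letters changed stood in 6.24%. One match of each of 7 members is shown here with 8 bases on each side, 5′ to 3′ on the strand of the gene, with the match in capitals and neighbouring matches left out.
HSPA1A: aaaccctgGAATATTCCCGACctggcagc
HSPA1B: aacccctgGAATATTCCCGACctggcagc
DNAJB1: gcggggcgGAAGGTTCTGGAGggggctgg
HSPB1: taacgagaGAAGGTTCCAGATgagggctg
HSPA8: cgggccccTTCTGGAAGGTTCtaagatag
HSP90AA1: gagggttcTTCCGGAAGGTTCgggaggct
HSP90AB1: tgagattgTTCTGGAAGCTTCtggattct
The windows lie at chr6:31815429-31815457 and chr6:31827625-31827653 on the plus strand, chr19:14518454-14518482 on the minus strand, chr7:76302483-76302511 on the plus strand, chr11:123062171-123062199 and chr14:102087112-102087140 on the minus strand, and chr6:44247823-44247851 on the plus strand. The matches of *HSPA8*, *HSP90AA1* and *HSP90AB1* were exact, and those of *HSPA1A*, *HSPA1B*, *DNAJB1* and *HSPB1* had 1 letter changed. *DNAJB1* and *HSP90AB1* had 3 start sites and *HSP90AA1* had 2, and each start site counts as 1 promoter in the shares above. Start site 1 of *DNAJB1*, 1 of *HSP90AA1* and 1 and 2 of *HSP90AB1* had no match, even with 1 letter changed. *HSPA1A* and *HSPA1B* carried the same 13 letters, 106 and 105 bases before their start sites. *HSPH1* and *BAG3*, each with 1 start site in the table, had no match in this window. A match describes the letters alone and says nothing of whether HSF1 was bound.

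At 8 cP, SC cells held less RNA of the inducible HSP70 genes *HSPA1A* and *HSPA1B*, of *DNAJB1* and of *BAG3* than at 0.77 cP, while the abundant HSP90 genes and *HSPA8* did not pass the test. *HSPA1A* was at 0.354 of its level at 0.77 cP, *HSPA1B* at 0.435, *DNAJB1* at 0.682 and *BAG3* at 0.847. Of the 10 members, 4 fell, 1 (*HSPH1*) rose and 5 did not pass the test, which throughout was the quasi-likelihood test of edgeR, adjusted by Benjamini-Hochberg over all 18264 genes and a threshold of 0.05. In that comparison 19.3% of all genes tested passed, 9.57% higher and 9.69% lower. With the knockdown, in shTRPV4 cells against SC cells at 8 cP, *HSPH1* and *HSF1* rose, *HSP90AA1* fell and 7 did not pass, with 20.0% of all genes passing, 9.02% higher and 11% lower. Against SC cells at 0.77 cP, shTRPV4 cells had 2 members higher, 4 lower and 4 not passing, where 42.4% of all genes passed, 20.4% higher and 22% lower. Each pair of these comparisons shares a group of libraries, so that they are not independent. The median log2 fold change of the members was -0.019, 0.0087 and 0.0023 in the 3 comparisons, beside -0.0065, 0.00064 and -0.011 over all genes tested. In RNA of whole cultures, a smaller share of cells that express a gene and less of its RNA in each cell cannot be told apart.

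**Figure D1:**
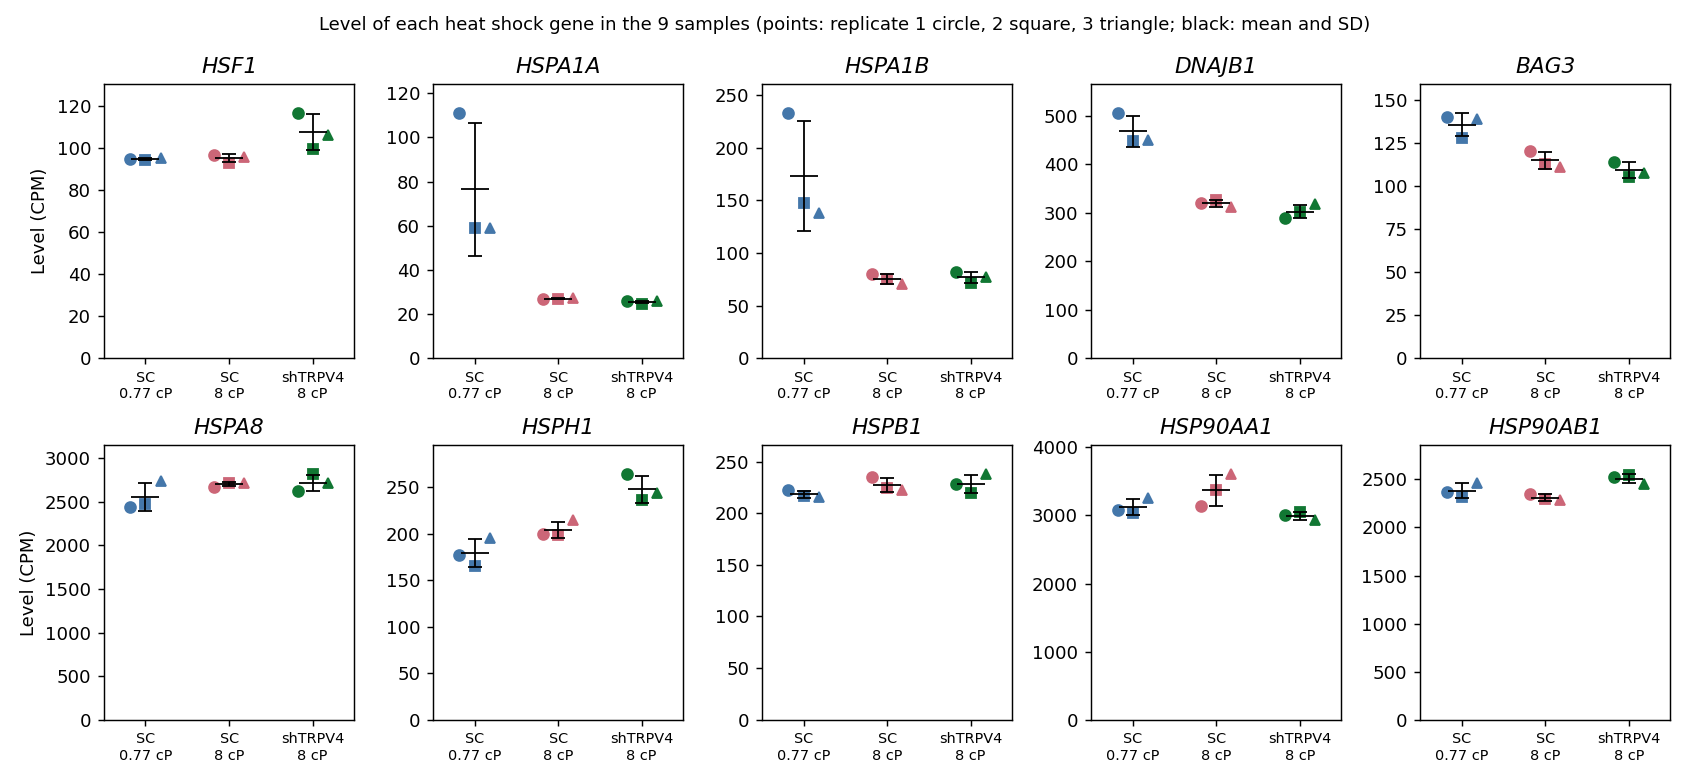
Level of each of the 10 genes in CPM (linear axis from 0) in the 9 libraries, with 1 point per library, its shape giving the replicate, and bars for mean and SD (n = 3). *HSPA1A*, *HSPA1B*, *DNAJB1* and *BAG3* were lower in all 6 libraries at 8 cP than in all 3 at 0.77 cP, and replicate 1 of SC cells at 0.77 cP stood highest in each of them.

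RNA of *HSF1* lay level between the SC groups and higher in shTRPV4 cells. The gene (chr8:144291591-144314720, GRCh38, plus strand) shares 137 exon bases with *DGAT1* or ENSG00000254690 on the other strand. *HSF1* was at 94.8, 94.6 and 95.5 CPM in SC cells at 0.77 cP. It was at 96.9, 93 and 95.9 CPM in SC cells at 8 cP. It was at 117, 99.6 and 106 CPM in shTRPV4 cells. The SC libraries of both viscosities lay within a narrow band, and every shTRPV4 library lay above every SC library. Viscosity made no difference that passed the test (log2 fold change 0.0046, 95% interval -0.11 to 0.12, adjusted p = 0.963), and upper quartile scaling turned the sign of this small value, to -0.0053. *HSF1* was higher in shTRPV4 cells than in SC cells at 8 cP by 0.18 on the log2 scale (SE 0.052, adjusted p = 0.0268). That call was lost without SC 8 cP replicate 1 (adjusted p = 0.0585), 2 (0.117) or 3 (0.0549), or without shTRPV4 replicate 1 (0.114). Against SC cells at 0.77 cP the difference was 0.18 (adjusted p = 0.0112), and it was lost only without shTRPV4 replicate 1 (0.0549) among the 9 fits that left out 1 library. HSF1 is controlled largely as a protein, through its release, trimer formation and phosphorylation, which these counts do not measure.

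Of the 10 members, the 2 inducible HSP70 genes had the largest differences between viscosities. *HSPA1A* (chr6:31815543-31817946, plus strand) and *HSPA1B* (chr6:31827738-31830254, plus strand) are neighbouring genes without introns in the major histocompatibility region, and they encode nearly the same protein, the HSP70 that heat induces. *HSPA1A* was at 111, 59.1 and 59.2 CPM in SC cells at 0.77 cP, from 10466, 3792 and 6090 counts. In SC cells at 8 cP it was at 27.1, 26.8 and 27.4 CPM, from 2675, 2588 and 2489 counts. In shTRPV4 cells it was at 26, 24.8 and 25.8 CPM, from 2378, 1937 and 2332 counts. Replicate 1 at 0.77 cP stood well above the other two, which agreed closely with each other, and all 3 lay above every library at 8 cP. The means were 76.4 ± 29.9 CPM, 27.1 ± 0.315 CPM and 25.5 ± 0.655 CPM (SD, n = 3 each). The gene was lower at 8 cP than at 0.77 cP in SC cells (log2 fold change -1.50 ± 0.17 (SE), adjusted p = 4.42e-05). Without SC 0.77 cP replicate 1 the difference was -1.12 ± 0.050 (SE, adjusted p = 7.03e-09), a smaller difference with a smaller error.

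*HSPA1B* showed the same order. It was at 233, 148 and 138 CPM in SC cells at 0.77 cP. At 8 cP it was at 80, 75.2 and 70.7 CPM in SC cells. The shTRPV4 cells held 82.2, 72 and 77.1 CPM. Replicate 1 at 0.77 cP was again the highest, and no library at 0.77 cP overlapped with those at 8 cP. The difference with viscosity was -1.20 on the log2 scale (SE 0.14, adjusted p = 4.80e-05), and -0.92 without that replicate (adjusted p = 6.52e-07). In shTRPV4 cells against SC cells at 8 cP, the 3 *HSPA1A* libraries lay just below the 3 SC libraries but the difference did not pass (log2 fold change -0.087, 95% interval -0.45 to 0.28, adjusted p = 0.777). *HSPA1B* overlapped between the same groups (log2 fold change 0.034, 95% interval -0.26 to 0.33, adjusted p = 0.896). The upper ends of both intervals were far below the size of the difference with viscosity. In shTRPV4 cells both genes were lower than in SC cells at 0.77 cP (-1.59 on the log2 scale for *HSPA1A*, adjusted p = 3.88e-06, and -1.17 for *HSPA1B*, adjusted p = 8.89e-06).

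Reads of the 2 genes are hard to tell apart. Of the 2397 stretches of 100 bases, the read length, in the transcripts of *HSPA1A*, 69.5% occur also in another gene's transcripts, all of them in those of *HSPA1B*, and of the 2418 of *HSPA1B* 72.8% are shared. How reads that fit both genes were counted is not given in the sources used here, so the level of either gene is uncertain. The sum of both does not depend on the split between them, but it misses any reads that were dropped for fitting both. In addition, 920 exon bases of *HSPA1B* are shared with ENSG00000285565 in the same direction, and the treatment of their reads is not given. The sum was 344, 206.8 and 197 CPM in SC cells at 0.77 cP. At 8 cP it was 107, 102 and 98.1 CPM in SC cells and 108, 96.7 and 103 CPM in shTRPV4 cells. Fitted as 1 gene, the sum was lower at 8 cP by 1.28 on the log2 scale in SC cells (log2 fold change -1.28 ± 0.15 (SE), adjusted p = 4.17e-05), and -0.97 without SC 0.77 cP replicate 1. Between shTRPV4 and SC cells at 8 cP it differed by 0.0031 ± 0.14 (SE, adjusted p = 0.992), a value whose sign turned with the scaling. The ratio of *HSPA1B* to *HSPA1A* counts was 2.1, 2.5 and 2.33 in SC cells at 0.77 cP, 2.96, 2.81 and 2.58 in SC cells at 8 cP, and 3.17, 2.91 and 2.99 in shTRPV4 cells, with no overlap between 0.77 and 8 cP.

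*DNAJB1* encodes the HSP40 protein that delivers clients to HSPA1A and, in a feedback loop, helps HSP70 to take HSF1 off its sites. The gene lies on the minus strand at chr19:14514769-14560391, and 561 of its exon bases overlap on the other strand with *TECR* or *MIR639*. Its level was 506, 448 and 452 CPM in SC cells at 0.77 cP. At 8 cP, SC cells held 322, 326 and 311 CPM. In shTRPV4 cells it was 289.9, 301 and 318 CPM. The lowest library at 0.77 cP lay far above the highest at 8 cP, and the 2 groups at 8 cP overlapped. The gene was lower at 8 cP in SC cells (log2 fold change -0.55 ± 0.053 (SE), adjusted p = 5.82e-06), with values from -0.57 to -0.49 over the fits that left out 1 library. The knockdown made no difference that passed (log2 fold change -0.078, 95% interval -0.19 to 0.035, adjusted p = 0.342).

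*BAG3* encodes a cochaperone that binds HSP70 and small heat shock proteins together and steers clients towards autophagy. It lies on the plus strand at chr10:119651380-119677819. Its level was 140.1, 128 and 139 CPM in SC cells at 0.77 cP. In SC cells at 8 cP it was 120.3, 113 and 111 CPM. The shTRPV4 cells had 114, 105 and 108 CPM. As with *DNAJB1*, the groups at different viscosities did not overlap and those at 8 cP did. The gene was lower at 8 cP in SC cells (log2 fold change -0.24 ± 0.050 (SE), adjusted p = 0.00513), a smaller change than those of *HSPA1A*, *HSPA1B* and *DNAJB1*, and it passed in each of the 9 fits that left out 1 library, with adjusted p up to 0.0404. Between shTRPV4 and SC cells at 8 cP it did not pass (log2 fold change -0.075, 95% interval -0.18 to 0.033, adjusted p = 0.335). Against SC cells at 0.77 cP, *DNAJB1* and *BAG3* were lower in shTRPV4 cells, at 0.647 and 0.804 of that level (adjusted p = 3.32e-07 and 1.38e-04).

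**Figure D2:**
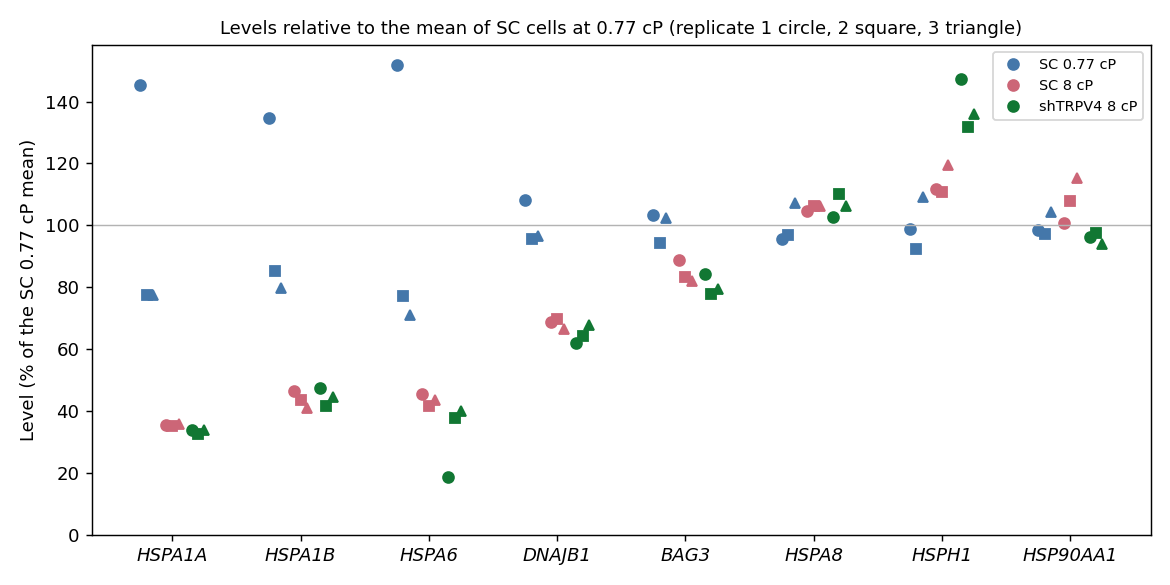
Level of 8 heat shock genes in each library as a percentage of the mean of SC cells at 0.77 cP (linear axis from 0, 1 point per library, colour for the group and shape for the replicate). *HSPA1A*, *HSPA1B* and *HSPA6* lay lowest at 8 cP with SC 0.77 cP replicate 1 far above the other libraries. *HSPH1* and *HSPA8* lay above 100% in every library at 8 cP, though *HSPA8* passed the test in no comparison.

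*HSPH1* went the other way. It encodes HSP110, a large relative of HSP70 that resets its cycle, and lies on the minus strand at chr13:31134973-31162388 with no exon base shared with another gene. SC cells at 0.77 cP held 177, 165 and 195 CPM of it. At 8 cP, it stood at 199.9, 198 and 214 CPM in SC cells. In shTRPV4 cells it stood at 263, 236 and 244 CPM. The libraries of the 3 groups followed each other without overlap, shTRPV4 cells highest, the gap between the SC groups being narrow. The rise with viscosity in SC cells (log2 fold change 0.19 ± 0.061 (SE), adjusted p = 0.0404) was lost without SC 0.77 cP replicate 1 (adjusted p = 0.121) or 2 (0.162), or without SC 8 cP replicate 1 (0.0606) or 3 (0.153). The rise in shTRPV4 cells over SC cells at 8 cP (log2 fold change 0.28 ± 0.060 (SE), adjusted p = 0.00431) held in all 9 such fits. Over SC cells at 0.77 cP the level in shTRPV4 cells was 1.38-fold (adjusted p = 2.10e-05). *HSPH1* is a target of HSF1 in heat-shocked cells, and here its direction was opposite to that of *HSPA1A*, *HSPA1B*, *DNAJB1* and *BAG3*.

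*HSPA8*, the constitutive HSP70 that serves folding in unstressed cells, did not pass in any comparison. It lies on the minus strand at chr11:123057489-123063230, with 175 exon bases shared with the small nucleolar RNAs *SNORD14C* and *SNORD14D* in the same direction. On the other strand, 555 of its exon bases are shared with ENSG00000288061. Levels were 2445, 2477 and 2741 CPM in SC cells at 0.77 cP. They were 2672, 2711 and 2717 CPM in SC cells at 8 cP. They were 2627, 2813 and 2715 CPM in shTRPV4 cells. The highest library at 0.77 cP, replicate 3, lay above every SC library at 8 cP, and the other two lay below them. The difference with viscosity was small (log2 fold change 0.080, 95% interval -0.027 to 0.19, adjusted p = 0.292), and it passed only without that replicate (log2 fold change 0.14, adjusted p = 0.0448), as did the comparison of shTRPV4 cells with SC cells at 0.77 cP (0.15, adjusted p = 0.0203, beside 0.090 and 0.171 with all libraries). With the knockdown the interval was -0.097 to 0.12 on the log2 scale (adjusted p = 0.919). Per kilobase of exon, *HSPA8* stood at 527 CPM in SC cells at 0.77 cP, beside 31.8 for *HSPA1A* and 68.7 for *HSPA1B*. By this measure *HSPA8* was the most abundant of the 3 HSP70 genes. The levels of *HSPA1A* and *HSPA1B* would be too low if reads that fit both genes were not counted.

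*HSPB1*, the gene of the small heat shock protein HSP27, which holds unfolded proteins and binds actin, did not pass either. It is on the plus strand at chr7:76302673-76304295. Its levels were 222, 216 and 216 CPM in SC cells at 0.77 cP. They were 235, 225 and 222 CPM in SC cells at 8 cP. In shTRPV4 cells they were 228, 220.0 and 238 CPM. All 9 libraries lay within a narrow range, and each group overlapped with both others. The interval of the difference with viscosity was -0.035 to 0.15 on the log2 scale (adjusted p = 0.382), and that with the knockdown -0.086 to 0.10 (adjusted p = 0.931).

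The 2 cytosolic HSP90 genes were the most abundant of the 10 per kilobase of exon with *HSPA8*. A gene's length here joins the exons of all its annotated transcripts, whether these cells use them or not. A gene with a long joined length, such as *DNAJB1* (8188 bases, beside 1623 for *HSPB1*), stands lower by this measure. At 0.77 cP *HSP90AB1* stood at 799 CPM per kilobase, *HSP90AA1* at 612, *HSPA8* at 527 and *HSPB1* at 135, and the other six lay between 17.9 for *HSF1* and 68.7 for *HSPA1B*. *HSP90AA1* (chr14:102080742-102139699, minus strand, 197 exon bases shared with *WDR20* on the other strand) encodes the form that stress induces further. It was at 3078, 3033 and 3253 CPM in SC cells at 0.77 cP. At 8 cP, 3142, 3368 and 3602 CPM were found in SC cells. The shTRPV4 cells held 3001, 3045 and 2930 CPM. The SC libraries at 8 cP were the most spread and lay above every shTRPV4 library. Viscosity made no difference that passed (log2 fold change 0.11, 95% interval -0.0012 to 0.22, adjusted p = 0.157). The gene was lower in shTRPV4 cells than in SC cells at 8 cP (log2 fold change -0.17 ± 0.053 (SE), adjusted p = 0.0314), a call lost without SC 8 cP replicate 2 (adjusted p = 0.0939) or 3 (0.167) and without shTRPV4 replicate 2 (0.0653) or 3 (0.0765). Against SC cells at 0.77 cP, shTRPV4 cells did not differ past the threshold (log2 fold change -0.061, 95% interval -0.17 to 0.051, adjusted p = 0.382).

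*HSP90AB1* (chr6:44246166-44253888, plus strand) encodes the constitutive form. Its levels were 2364, 2313 and 2465 CPM in SC cells at 0.77 cP. At 8 cP, SC cells had 2352, 2291 and 2290 CPM. In shTRPV4 cells the levels were 2521, 2540 and 2451 CPM. Every shTRPV4 library lay above every SC library at 8 cP, but the difference missed the threshold (log2 fold change 0.12, 95% interval 0.023 to 0.21, adjusted p = 0.0743) and passed with DESeq2 (adjusted p = 0.0287). With viscosity it did not pass (log2 fold change -0.043, 95% interval -0.14 to 0.050, adjusted p = 0.532). The ratio of *HSP90AA1* to *HSP90AB1* counts was 1.3, 1.31 and 1.32 in SC cells at 0.77 cP, 1.34, 1.47 and 1.57 in SC cells at 8 cP, and 1.19, 1.2 and 1.2 in shTRPV4 cells. The 3 groups did not overlap in this ratio, for which no test was run.

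**Figure D3:**
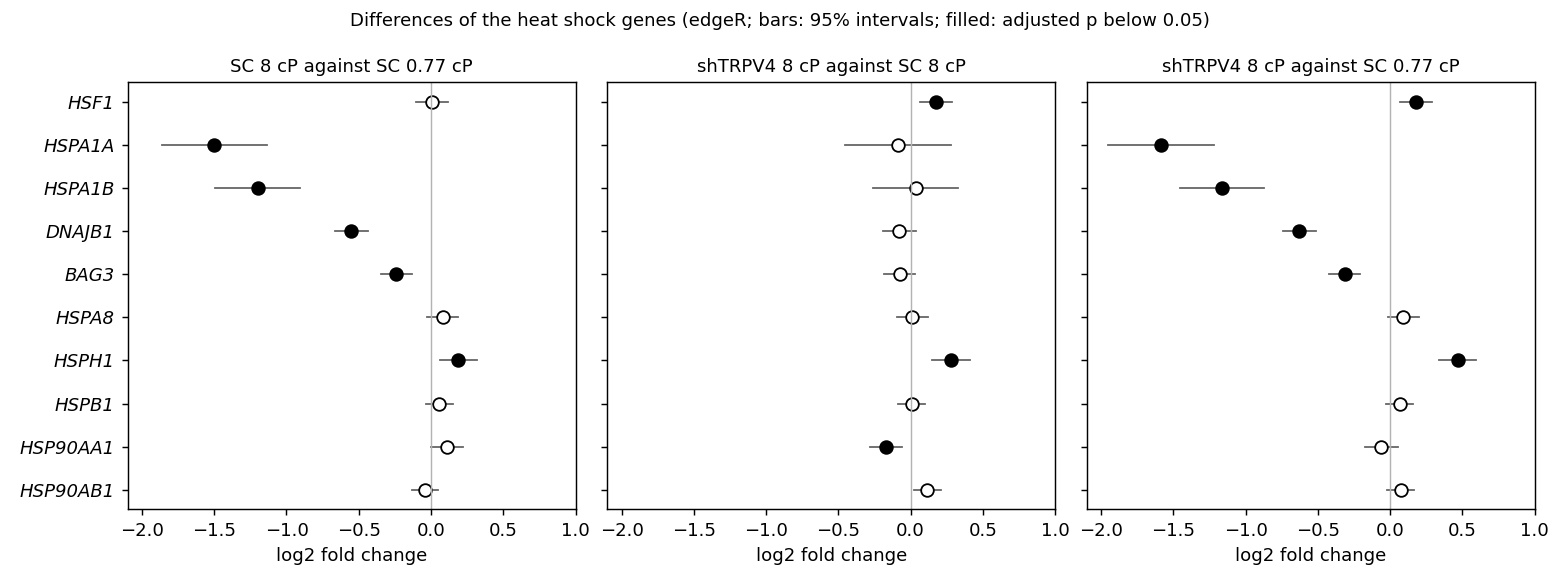
Log2 fold changes of the 10 genes in the 3 comparisons (edgeR, bars are 95% intervals, filled points have an adjusted p below 0.05). *HSPA1A*, *HSPA1B*, *DNAJB1* and *BAG3* lie left of 0 in both comparisons with SC cells at 0.77 cP, and none of these 4 has a filled point between shTRPV4 and SC cells at 8 cP.

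The sum over the 10 members was nearly the same in each group, at 9402 ± 337 CPM in SC cells at 0.77 cP, 9445 ± 208 in SC cells at 8 cP and 9313 ± 128 in shTRPV4 cells (SD, n = 3 each). They made up between 0.902 and 0.969% of all counts of a library. The abundant HSP90 and HSPA8 RNAs set this sum, in which *HSPA1A* and *HSPA1B* together were 249 ± 82.1 CPM at 0.77 cP and 102 ± 4.49 CPM at 8 cP in SC cells. Groups did not overlap for 5 of the 10 members in the comparison with viscosity, for 5 with the knockdown and for 6 in the comparison of shTRPV4 cells with SC cells at 0.77 cP, beside 38.4%, 36.3% and 50.6% of all genes tested.

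Members that fell did so in the same libraries. Over the 9 libraries, Pearson's r of log2 CPM was 0.992 between *HSPA1A* and *HSPA1B*, which share most of their sequence, 0.974 between *HSPA1A* and *DNAJB1* and 0.911 between *HSPA1A* and *BAG3*. *HSF1* went with *HSPH1* (0.828) rather than with *HSPA1A* (-0.429). These values describe 9 libraries of 3 groups, share the library and its scaling, and include the step between the groups. The genes outside the 10 whose pattern was most like the mean of the standardised levels of *HSPA1A*, *HSPA1B*, *DNAJB1*, *HSPH1* and *BAG3* were *TMPRSS9* (r = 0.971), *LETMD1* (0.964), *UBE2D3P2* (0.959), *MRNIP* (0.958), *NFYC-AS1* (0.956) and ENSG00000275993 (0.956), over the same 9 libraries. *HSPH1* itself ran against this mean (r = -0.619), beside 0.936 to 0.98 for the other 4. *MRNIP*, for example, was at 14.9, 11.01 and 14.2 CPM in SC cells at 0.77 cP. It was at 7.18, 6.25 and 6.21 CPM in SC cells at 8 cP and 8.75, 7.99 and 7.48 CPM in shTRPV4 cells. *SQSTM1* shares 1687 exon bases with *MGAT4B* and *MRNIP* on the other strand, and whether the counting used the strand is not given. *TMPRSS9*, *UBE2D3P2* and *NFYC-AS1* were low, at 1.082 CPM or less in every library. *LETMD1* did not pass the test with viscosity (adjusted p = 0.052).

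The wider chaperone network was described by 11 lists of 87 genes, 79 of them tested. With viscosity, 17 of the 79 rose and 12 fell, 36.7% in all beside 19.3% of all genes tested. Cytosolic HSP40 genes other than *DNAJB1* had none higher and 3 of 8 lower, while HSP90 cochaperones had 5 of 13 higher, subunits of the TRiC/CCT chaperonin, which folds actin and tubulin, had 4 of 8 higher, and mitochondrial chaperones had 2 of 5 higher, with none lower in these last 3 lists. Endoplasmic reticulum chaperones had 3 of 10 lower and none higher, and prefoldin had none of 6 in either direction. The other HSP70 and HSP110 genes had 3 of 9 higher and 1 lower, HSP70 cochaperones 2 of 8 higher and 1 lower, other HSF1 targets 1 of 7 higher and 2 lower, the HSF family 1 of 4 lower and the small heat shock proteins 1 of 1 lower. The median log2 fold change was -0.14 for the HSP40 genes, 0.12 for the HSP90 cochaperones, 0.15 for TRiC/CCT, 0.14 for the mitochondrial chaperones and -0.020 for the endoplasmic reticulum list, beside -0.0065 over all genes. Several of these calls were lost when 1 library was left out. Both mitochondrial calls, *HSPA9* (0.21, adjusted p = 0.0114) and *CLPB* (0.21, adjusted p = 0.0319), were lost without SC 0.77 cP replicate 1 or 2 or SC 8 cP replicate 3, and *CLPB* also without SC 8 cP replicate 1. Of the 3 HSP40 genes, *DNAJA1* and *DNAJB4* were each called in 4 of the 9 fits that left out 1 library, as was *CALR* of the endoplasmic reticulum list. All 3 were lost without SC 0.77 cP replicate 1 or 2 or any one of the SC libraries at 8 cP.

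Some of the network genes that fell with viscosity are also known as stress-induced, but not all genes of that kind fell. Of the 7 other HSF1 targets, 2 fell, 1 (*HSPD1*) rose and 4 did not pass. *HSPB8*, the small heat shock protein that works with BAG3, was at 12.7, 9.88 and 11.9 CPM in SC cells at 0.77 cP. It was at 6.25, 6.22 and 7.19 CPM in SC cells at 8 cP and, in shTRPV4 cells, at 4.56, 4.52 and 5.24 CPM. The 3 groups did not overlap, and *HSPB8* fell with viscosity (log2 fold change -0.81 ± 0.10 (SE), adjusted p = 9.37e-05) and again with the knockdown (log2 fold change -0.45 ± 0.10 (SE), adjusted p = 0.0061). *HSPA6*, a strictly inducible HSP70 gene with a near-identical neighbouring copy, was at 3.03, 1.54 and 1.42 CPM in SC cells at 0.77 cP. It was at 0.91, 0.828 and 0.87 CPM in SC cells at 8 cP, where 3 libraries gave 90, 80 and 79 counts. In shTRPV4 cells it was at 0.371, 0.754 and 0.796 CPM. Its highest library was SC 0.77 cP replicate 1, as for *HSPA1A* and *HSPA1B*, and its fall with viscosity (log2 fold change -1.21 ± 0.28 (SE), adjusted p = 0.00924) was lost without that library (-0.76, adjusted p = 0.0835). The other 7 small heat shock protein genes of the list were too low to test.

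*DNAJB2*, another HSP40 gene, fell with viscosity (log2 fold change -0.35 ± 0.054 (SE), adjusted p = 8.41e-04). *IER5*, an HSF1 target whose protein promotes the activity of HSF1, fell from 343 ± 16.9 CPM to 263 ± 7.21 CPM in SC cells (SD, n = 3, log2 fold change -0.39, adjusted p = 6.99e-05). *HSF4*, a relative of *HSF1* that shares 1059 exon bases with ENSG00000265690 in the same direction, fell from 4.63 ± 1.08 CPM to 2.73 ± 0.436 CPM (log2 fold change -0.76, adjusted p = 0.00556). In the endoplasmic reticulum, *HSPA5*, the HSP70 known as BiP, and *DNAJB9*, its HSP40 partner, fell by 0.22 and 0.38 on the log2 scale (adjusted p = 0.00284 and 0.00718). *BAG1*, a nucleotide exchange factor of HSP70, fell as well (log2 fold change -0.32, adjusted p = 0.00447). The BAG genes did not move together, since *BAG2* (0.18, adjusted p = 0.0126) and *BAG5* (0.25, adjusted p = 0.0141) rose, both calls being lost without SC 0.77 cP replicate 1 or SC 8 cP replicate 3 and that of *BAG2* also without SC 0.77 cP replicate 2. Among those that rose was *HSPD1*, the mitochondrial HSP60, an HSF1 target like *IER5* (log2 fold change 0.26, adjusted p = 0.00322). *HSPA4*, an HSP110 relative of *HSPH1*, rose too (log2 fold change 0.25, adjusted p = 0.00412). So did the TRiC/CCT genes *CCT5*, *CCT6A* and *TCP1*, at 0.28, 0.25 and 0.23 (adjusted p = 0.00539, 0.00448 and 0.00796). *CCT5* shares 1734 exon bases with an antisense gene, ENSG00000271980, and *BAG2* shares 2939 with *ZNF451-AS1* or *RAB23* on the other strand. *TCP1* shares 152 with *SNORA20* or *SNORA29* in the same direction and 454 with *ACAT2* on the other strand. Whether the counting used the strand of the libraries is not given in the sources used here. Some other named genes also share exon bases, and not all of these overlaps are listed. Each of the changes given in this paragraph was smaller than those of *HSPA1A* and *HSPA1B*. Of the 25 network genes singled out by the naming rule that passed with viscosity, 14 also passed in all 9 fits that left out 1 library, and all of those named in this paragraph except *BAG2* and *BAG5* are among them.

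**Figure D4:**
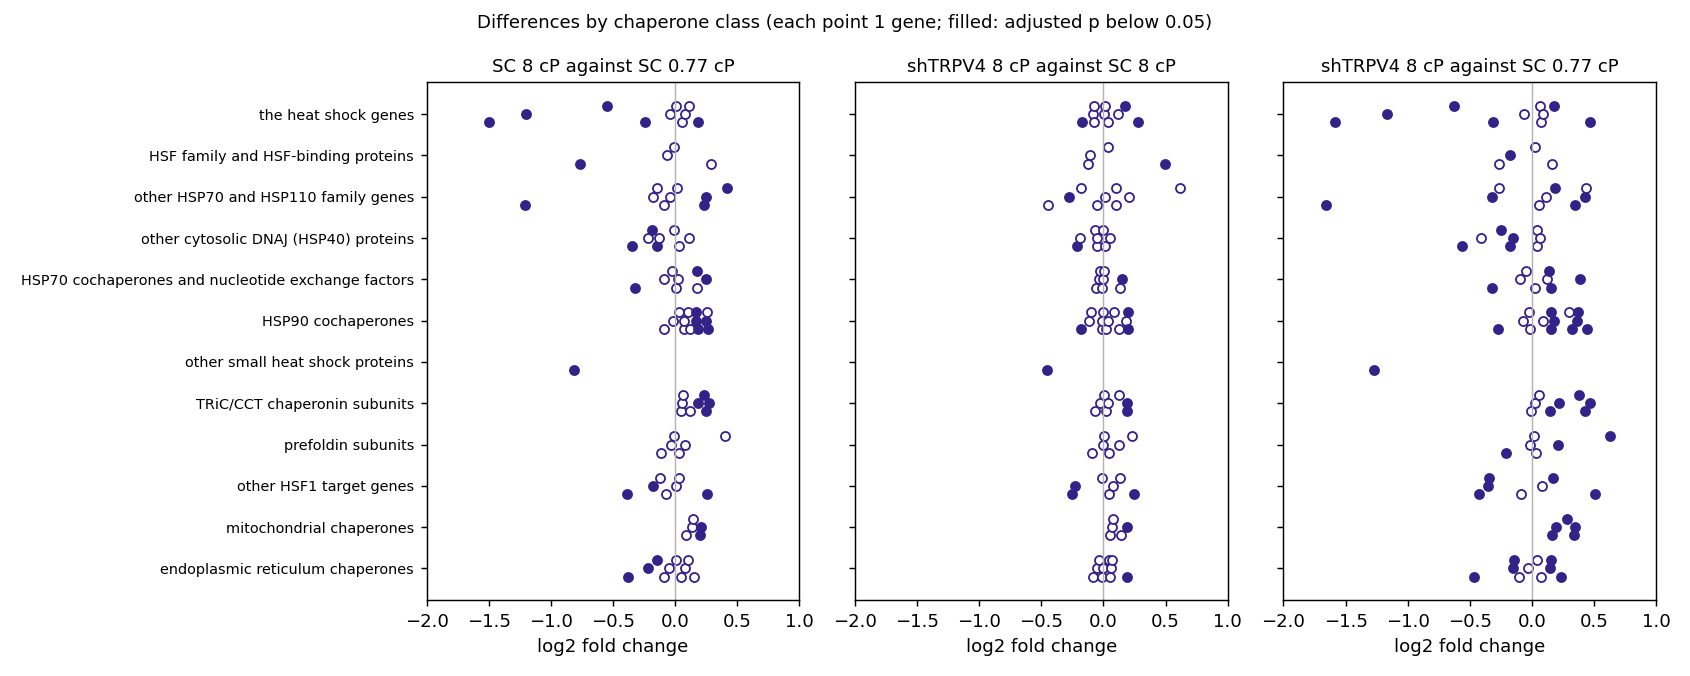
Log2 fold changes of the 10 heat shock genes and of the 11 lists of the wider network in the 3 comparisons, with 1 point per tested gene (filled where the adjusted p is below 0.05). With viscosity the points of TRiC/CCT all lie right of 0, and *HSPA6* and *HSPB8* lie farthest left outside the 10 genes.

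With the knockdown at 8 cP, 9 of the 79 network genes rose and 6 fell, 19.0% in all beside 20.0% of all genes tested. By list, the HSF family had 1 higher, HSP70 and HSP110 genes 1 lower, HSP40 genes 1 lower, HSP70 cochaperones 1 higher, HSP90 cochaperones 2 higher and 1 lower, small heat shock proteins 1 lower, TRiC/CCT 2 higher, other HSF1 targets 1 higher and 2 lower, mitochondrial and endoplasmic reticulum chaperones 1 higher each, and prefoldin none. *HSPD1* rose again (log2 fold change 0.25, adjusted p = 0.00285) and so did *AHSA1*, the activator of the HSP90 ATPase (log2 fold change 0.20, adjusted p = 0.00358). Those that fell included *HSPB8*, *SERPINH1*, the collagen chaperone HSP47 (log2 fold change -0.23, adjusted p = 0.00163) and *HSPA13*, an HSP70 relative of the microsomes (log2 fold change -0.28, adjusted p = 0.00251). *DNAJB2* fell a second time (log2 fold change -0.22, adjusted p = 0.0117), a call lost without SC 8 cP replicate 1. *HSF4*, lower at 8 cP in SC cells, was higher in shTRPV4 than in SC cells at 8 cP (log2 fold change 0.50, adjusted p = 0.0431), a call lost in 5 of the 9 fits that left out 1 library, namely without any one of the SC libraries at 8 cP or without shTRPV4 replicate 1 or 2. Of the 15 named network genes that passed with the knockdown, 6 held in all 9 such fits.

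In the comparison that holds both differences, shTRPV4 at 8 cP against SC at 0.77 cP, 30 of the 79 network genes were higher and 17 lower, 59.5% in all beside 42.4% of all genes tested, with 20.4% of all genes higher and 22% lower. All 5 mitochondrial chaperones and 5 of 8 TRiC/CCT subunits were higher with none lower, HSP90 cochaperones had 7 of 13 higher and 1 lower, and the HSP40 list had 4 of 8 lower and none higher. HSP70 and HSP110 genes had 3 higher and 2 lower, HSP70 cochaperones 3 higher and 1 lower, prefoldin 2 higher and 1 lower, other HSF1 targets 2 higher and 3 lower, endoplasmic reticulum chaperones 3 in each direction, and the HSF family and the small heat shock proteins 1 lower each. *HSPB8* was at 4.78 ± 0.404 CPM in shTRPV4 cells and 11.5 ± 1.44 CPM in SC cells at 0.77 cP (log2 fold change -1.27, adjusted p = 2.09e-07). *HSPA6* was also lower (log2 fold change -1.65, adjusted p = 3.53e-04), as was *DNAJB2* (-0.56, adjusted p = 1.41e-06). *HSPD1* was higher (0.51, adjusted p = 1.76e-06), with *CCT5* (0.47, adjusted p = 1.51e-05) and *FKBP5*, a cochaperone of HSP90 in hormone receptor complexes (0.45, adjusted p = 1.50e-04). Of the 30 named network genes that passed in this comparison, 27 held in all 9 fits that left out 1 library.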

How the data were processed

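RNA-seq libraries of 9 MDA-MB-231 samples, 3 in each of 3 groups, were analysed. The values used are the authors' whole-number counts of reads per Ensembl gene, deposited as 1 table per sample without normalization. By the labels and the study's methods, strand-specific poly(A) libraries were sequenced as paired reads of 100 bases, mapped to GRCh38.p13 and counted over exons of the Ensembl annotation, and the submitters' processing notes name HISAT2 2.2.1, SAMtools 1.1.3 and HTSeq 0.13.5. The strand setting and the treatment of reads that fit several genes are not given in the sources used here.

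Blank lines (3) were left out, and 60463 of 60664 IDs matched a symbol in GENCODE. Counts were scaled by TMM and filtered by filterByExpr, leaving 18264 genes, and fitted in edgeR 4.0.16 (R 4.3.3) by the quasi-likelihood test with 1 coefficient per group over all 9 libraries, without the replicate number as a block. P-values were adjusted by Benjamini-Hochberg over all genes tested, with a threshold of 0.05. Levels are counts per 1000000 of the TMM-scaled library (CPM). DESeq2 1.42.0, upper quartile scaling, other filters on low counts, fits of 6 samples, the replicate block, a fold change minimum and leaving out each library were alternatives. The fits were tested on simulated data. Replicates of a group differed by 6.07 to 27.9 chi-square units per gene, beyond sampling noise.

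The 10 members and the lists were chosen with earlier results of these data known. All members are named in each comparison. From each other list the rule names the 3 genes with the smallest adjusted p and the called gene with the largest change, and it adds *TRPV4* and the 6 genes most like the mean of 5 inducible members. Protein sequences were not analysed here, and 1 gene that the rule names is not reported here.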

Additional observations from a re-analysis of the deposited data

How the results depend on the processing

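*HSPA1A*, *HSPA1B*, *DNAJB1* and *BAG3* were called lower at 8 cP in SC cells under each alternative run but 1. The exception was *BAG3* (-0.24), which did not reach the fold change minimum. Without 1 library, the log2 fold changes of these 4 genes ranged from -1.65 to -1.12, -1.33 to -0.92, -0.57 to -0.49 and -0.27 to -0.21. Leaving out 1 library at a time, the members called ranged from 4 to 6 with viscosity, 1 to 3 with the knockdown and 5 to 7 in shTRPV4 cells against SC cells at 0.77 cP, network genes from 14 to 36, 7 to 18 and 38 to 51, and all genes from 1409 to 4349, 2179 to 3836 and 6318 to 7705. These counts rest on fewer samples. With viscosity the lowest counts of all genes came without SC 0.77 cP replicate 1 (1409), SC 8 cP replicate 3 (1418) and SC 0.77 cP replicate 2 (1927), and with the knockdown without SC 8 cP replicate 2 (2179) and replicate 1 (2361). With a log2 fold change of at least 0.5 in size as a second condition, 698, 959 and 2426 of all genes were called in the 3 comparisons, 3, 0 and 3 members, and 3, 0 and 5 network genes. The 0 members and network genes of the knockdown under this condition stand beside 3 members and 15 network genes at the adjusted p alone.

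The summed level of *HSPA1A* and *HSPA1B* in shTRPV4 against SC cells at 8 cP (0.0031) was -0.0028 with upper quartile scaling and ranged from -0.037 to 0.043 without 1 library, being -0.0031 and -0.027 without SC 8 cP replicates 2 and 3 and -0.037 without shTRPV4 replicate 1. Other values near 0 that turned sign were *HSF1* with viscosity (-0.0053 with upper quartile scaling) and, with the knockdown, *HSPA1B* (-0.0095 without SC 8 cP replicate 3, -0.015 without shTRPV4 replicate 1), *HSPB1* (-0.0045 and -0.0092 without SC 8 cP replicates 2 and 3, -0.022 without shTRPV4 replicate 3) and *HSPA8* (-0.016 without shTRPV4 replicate 2). Without 1 library these last 3 ranged up to 0.081, 0.033 and 0.033. None of these values passed the test in either direction.

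Groups share replicate numbers, but same-numbered samples did not deviate together (mean r 0.0066, from -0.055 to 0.090 over 9 pairs, beside -0.0033 over 18 pairs with different numbers), so the numbers were not taken as pairing. With the replicate number as a block, 5, 3 and 6 members, 29, 16 and 46 network genes and 3475, 3607 and 7731 of all genes were called, and the summed level of *HSPA1A* and *HSPA1B* differed by -1.25 with viscosity, 0.0022 with the knockdown and -1.25 between shTRPV4 cells and SC cells at 0.77 cP.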
